A study of Mus musculus with 2 samples.

Results

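The peaks of the testis-specific linker histone H1t were examined at 3103 non-coding RNA genes of mouse chromosomes 1 to 19, out of 51229 annotated genes there. The members were all genes of these autosomes that GENCODE M21 (assembly GRCm38, the same as mm10) types as bidirectional promoter long non-coding RNA (190 genes) or as antisense (2913 genes). The study had 2 libraries made from spermatogenic cells of ICR mice, an outbred strain, whose testes were taken at an age of 6 weeks: a chromatin immunoprecipitate with an in-house rabbit antibody against H1t, and an input. Only peaks of the immunoprecipitate entered the results, and the input was not analysed here, so no value below has a replicate and no test between conditions was possible. Of the 76546 peaks in the list, 72438 lay on chromosomes 1 to 19. How many animals were pooled, and which germ cell stages the preparation held, is not given in the labels, and the list holds no expression values against which the cell type could be checked.

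Linker histones bind the nucleosome where DNA enters and leaves it and help to compact the fibre. H1t replaces part of the somatic linker histones in spermatocytes and early spermatids. An antisense gene is transcribed from the strand opposite to a coding gene that it overlaps, often from inside that gene. A bidirectional promoter gene starts inside the promoter of a coding gene and is transcribed away from it, so that a single open stretch, commonly a CpG island, serves both. Some antisense RNAs, such as Airn and Kcnq1ot1, silence imprinted neighbours, and many of those beside developmental transcription factor genes are known from embryonic tissue.

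Promoter sequences are shown for members that carried a start-site peak and for members that did not. They are single examples, and the GC results below use first exons, not these windows. Each runs from 250 bases before to 50 bases after the RefSeq start on GRCm38.p6, read 5′ to 3′ on the gene's own strand, with every CG dinucleotide in capitals. The first 3 lines belong to starts with a peak that covered all 300 bases, and the last 3 to starts with 0 peak bases in the window. The windows are chr11:120348428-120348727 (plus strand), chr13:99516384-99516683 (plus) and chr2:147183833-147184132 (plus) for the first 3. The others are chr19:45997887-45998186 (plus), chr9:36693140-36693439 (minus) and chr7:143296498-143296797 (minus).
0610009L18Rik: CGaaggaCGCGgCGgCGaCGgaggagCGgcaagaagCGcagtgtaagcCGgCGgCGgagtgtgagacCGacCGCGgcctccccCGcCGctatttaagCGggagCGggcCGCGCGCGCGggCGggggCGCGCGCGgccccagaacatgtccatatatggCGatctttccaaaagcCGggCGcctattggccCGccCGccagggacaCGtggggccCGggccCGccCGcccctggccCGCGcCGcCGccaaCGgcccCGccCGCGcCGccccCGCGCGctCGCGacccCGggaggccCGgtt
Gm26559: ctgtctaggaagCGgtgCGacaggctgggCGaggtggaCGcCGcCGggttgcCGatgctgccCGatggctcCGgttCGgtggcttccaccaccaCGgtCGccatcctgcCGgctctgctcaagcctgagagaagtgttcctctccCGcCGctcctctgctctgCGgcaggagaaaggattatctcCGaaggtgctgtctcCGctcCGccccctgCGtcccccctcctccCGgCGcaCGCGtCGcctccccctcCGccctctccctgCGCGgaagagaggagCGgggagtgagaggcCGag
Nkx2-2os: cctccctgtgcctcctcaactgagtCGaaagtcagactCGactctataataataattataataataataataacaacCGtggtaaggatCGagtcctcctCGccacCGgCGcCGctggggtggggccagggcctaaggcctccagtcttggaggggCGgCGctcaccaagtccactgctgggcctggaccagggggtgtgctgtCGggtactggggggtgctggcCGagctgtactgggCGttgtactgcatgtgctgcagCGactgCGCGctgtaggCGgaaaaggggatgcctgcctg
4930505N22Rik: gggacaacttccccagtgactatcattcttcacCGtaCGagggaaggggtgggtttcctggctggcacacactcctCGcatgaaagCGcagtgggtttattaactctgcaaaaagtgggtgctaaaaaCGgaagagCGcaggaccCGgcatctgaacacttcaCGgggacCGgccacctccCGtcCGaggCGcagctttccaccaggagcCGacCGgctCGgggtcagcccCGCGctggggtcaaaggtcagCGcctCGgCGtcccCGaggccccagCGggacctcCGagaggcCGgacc
1700027I24Rik: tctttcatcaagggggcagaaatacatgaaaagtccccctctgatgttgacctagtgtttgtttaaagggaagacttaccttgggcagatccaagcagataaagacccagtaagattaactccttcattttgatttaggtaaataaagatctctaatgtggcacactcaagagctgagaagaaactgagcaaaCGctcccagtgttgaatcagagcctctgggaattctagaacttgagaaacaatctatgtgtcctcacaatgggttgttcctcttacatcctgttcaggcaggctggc
Kcnq1ot1: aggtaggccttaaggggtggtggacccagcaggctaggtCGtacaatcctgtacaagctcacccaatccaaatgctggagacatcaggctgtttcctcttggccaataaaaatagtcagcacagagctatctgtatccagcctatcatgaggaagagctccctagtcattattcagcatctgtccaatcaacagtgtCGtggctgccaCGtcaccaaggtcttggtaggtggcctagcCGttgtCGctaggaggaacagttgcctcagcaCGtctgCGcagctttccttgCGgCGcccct

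The window of 0610009L18Rik, which starts 136 bp from Actg1, the gene of cytoplasmic gamma-actin, had 53 CG dinucleotides and a GC content of 77.7%. That of Gm26559, 89 bp from Map1b, a microtubule-associated protein gene of neurons, had 30 and 69.3%. Nkx2-2os, antisense to a homeobox gene of the ventral nervous system, had 17 and 59.7%. Without a peak, 4930505N22Rik, paired with Armh3, had 24 and 63.7%, more than Nkx2-2os. The other windows without a peak were poorer. That of 1700027I24Rik, paired with the acrosomal protein gene Acrv1, had 1 CG and 43%, and that of the imprinted Kcnq1ot1 had 9 and 53.3%. Of the 32851 promoter windows in the RefSeq table, 94.6% held at least 1 CG, with a median of 7. Windows with at least 53, 30, 24, 17 and 9 CG made up 0.451%, 11.7%, 19.98%, 31.4% and 45.8%. A promoter window was found for 84 of the 190 bidirectional and 758 of the 2913 antisense genes. That is 44.2% and 26.0%, under 80%, so a comparison of promoter composition between groups is void and none is given.

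Bidirectional promoter genes carried an H1t peak at their start more often than antisense genes. A start-site peak, meaning a peak midpoint within 1 kb of the annotated 5′ end, was found at 76 of 190 bidirectional genes (40%, exact 95% Clopper-Pearson interval 33.0 to 47.3%) and at 470 of 2913 antisense genes (16.1%, 14.8 to 17.5%). Over all 51229 genes of these chromosomes the share was 14.3%, and over the 20807 coding genes it was 24.2%. The bidirectional share was thus above that of coding genes as a whole, while the antisense share was close to that of all genes and below that of coding genes. Coding genes with a bidirectional start within 1 kb had a like share, 67 of 176 (38.1%). For coding genes with no member start that close it was 23.8%. lincRNA genes, which by definition lie apart from coding genes, had a share of 6.49%. The intervals count genes only, treat them as independent, and say nothing of variation between animals. With peaks above the median score of the list the shares were 25.8% for bidirectional and 7.55% for antisense genes, and with a window of 500 bp they were 27.9% and 10.3%.

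For each type, fewer genes had their nearest midpoint just outside the window than just inside it, but this did not hold for every class of distance. For antisense genes 1 to 5 kb from a coding start, the fullest bin of 250 bp lay just beyond the edge. It held 25 midpoints at 1000 to 1250 bp into the gene, against 22 at 750 to 1000 bp. The outermost bidirectional gene inside the window was Gm7276, with its midpoint 969 bp away, and the first outside was Gm44577 at 1002 bp. For antisense genes these were 2310016G11Rik at 998 bp and Gm20463 at 1002 bp. The nearest midpoint lay up to 500 bp away at 53 bidirectional and 301 antisense genes, beyond that but within 1000 bp at 23 and 169, and in the next 500 bp at 7 and 91. More than 1 start-site peak was rare, at 3 bidirectional (1.58%) and 19 antisense genes (0.652%). It was as rare over all genes (0.549%) and over coding genes (0.932%). Every one of the 546 members with a start-site peak had a different best peak.

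**Figure D1:**
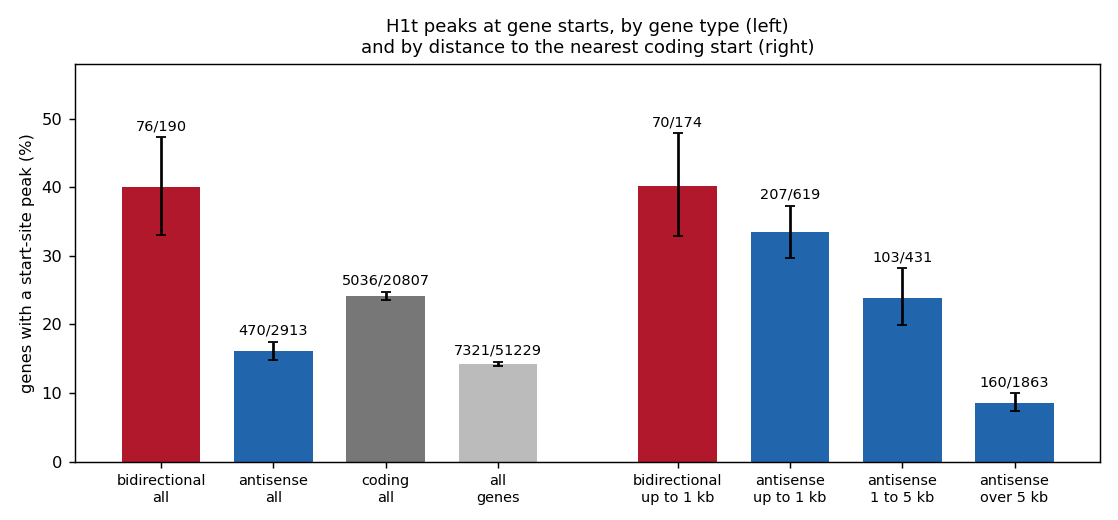
Percent of genes with an H1t peak midpoint within 1 kb of the start, for each gene type (left group) and for members grouped by the distance to the nearest coding start (right group). Error bars are exact 95% binomial intervals over genes and the numbers are genes with a peak over genes. Bidirectional genes stand at 40% and antisense genes at 16.1%, but antisense genes within 1 kb of a coding start reach 33.4%.

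The contrast between the types was smaller among genes close to a coding start. Of the bidirectional genes, 174 of 190 (91.6%) started within 1 kb of the start of a coding gene on either strand, against 619 of 2913 antisense genes (21.2%). Among genes this close the shares were 40.2% (70 of 174, 32.9 to 47.9%) for bidirectional and 33.4% (207 of 619, 29.7 to 37.3%) for antisense genes. The difference between the types was 6.79 percentage points there, against 23.9 over all members, and the intervals near coding starts overlapped. With peaks above the list's median score, 44 of 174 bidirectional genes (25.3%, 19.01 to 32.4%) and 94 of 619 antisense genes (15.2%, 12.4 to 18.3%) near a coding start had a peak. These intervals did not overlap, and the difference was 10.1 points there, against 18.2 over all members. Antisense genes 1 to 5 kb from a coding start had a peak in 103 of 431 cases (23.9%), and those over 5 kb away in 160 of 1863 (8.59%). With a window of 2 kb, the antisense shares were 36.5% within 1 kb of a coding start and 37.1% at 1 to 5 kb. Only 11 and 5 bidirectional genes fell in these classes, with 5 and 1 start-site peaks. Antisense genes near the start of a coding gene other than their own partner had a peak in 56 of 217 cases (25.8%), against 151 of 402 (37.6%) where the partner's start was the near one.

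The share also differed with the place of the antisense start along its coding partner. The partner of an antisense gene was taken as the opposite-strand coding gene with the largest overlap, or failing that the nearest start within 5 kb. Starts in the first 1 kb of the partner had a peak in 128 of 324 cases (39.5%, 34.1 to 45.1%). Starts deeper inside had one in 237 of 1870 (12.7%, 11.2 to 14.3%) and starts past the partner's end in 74 of 505 (14.7%, 11.7 to 18.04%). Starts up to 1 kb upstream of the partner had one in 22 of 75 (29.3%, 19.4 to 41.0%), and starts further upstream in 1 of 22. The layout with the start up to 1 kb upstream of the partner was also that of 112 of the 173 bidirectional pairs with starts within 1 kb. Away from coding starts, the share also differed between starts inside and outside coding exons, and the part of GC content in this was not tested. Among antisense genes over 5 kb from any coding start, 57 of 292 whose start lay inside an exon of a coding gene had a peak (19.5%), against 103 of 1571 whose start lay outside (6.56%).

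The 2 types also differed in where the peak lay around the start. At bidirectional genes the midpoints piled up just upstream of the non-coding start, that is toward the coding gene. Within 1 kb, 26 midpoints lay downstream and 53 upstream, so 32.9% (22.7 to 44.4%) were on the side of the non-coding gene. At antisense genes 291 lay downstream and 199 upstream (59.4% downstream, 54.9 to 63.8%). At coding genes 78.5% lay downstream. These shares pool all distances and layouts, which differ between the types. Among pairs with starts within 1 kb, the starts pointed away from each other in 112 of 173 bidirectional and 75 of 402 antisense pairs. The shares were not computed within a layout. The fullest bin of 250 bp was the one ending at the start for bidirectional genes, with 44.2 midpoints per 100 genes and kb. For antisense and coding genes it was the first bin inside the gene, with 13.045 and 33.6. The same bin was the fullest for antisense genes within 1 kb of a coding start, with 34.2. At 2 to 3 kb from the start, all had fallen to the level of the chromosomes as a whole, 2.94 midpoints per 100 kb, with 2.89 for bidirectional, 2.87 for antisense and 2.43 for coding genes.

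**Figure D2:**
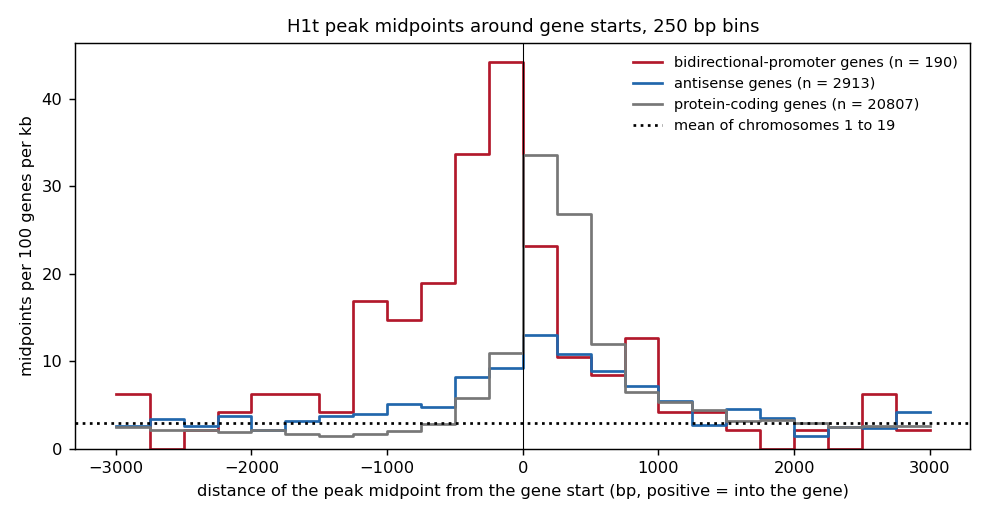
Density of H1t peak midpoints from 3 kb upstream to 3 kb downstream of the gene start in bins of 250 bp, per 100 genes and kb, for bidirectional, antisense and coding genes. The dotted line is the mean over chromosomes 1 to 19 (2.94). The bidirectional curve is highest just before the start (44.2), the antisense (13.045) and coding (33.6) curves just after it.

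Peaks at bidirectional genes were nearly always shared with the coding partner. A coding partner, the opposite-strand coding gene with the nearest start within 5 kb, was found for 184 bidirectional genes, at a median of 164.5 bp between the starts. In 70 of these pairs (38.0%) both starts had a peak, in 107 neither had one, in 5 only the non-coding start and in 2 only the coding start. In 68 pairs the same peak lay within 1 kb of both starts. The windows of a pair overlap almost fully when the starts are this close, so these are not independent observations. In the exceptions the peak lay within reach of only 1 of the starts, or each start had its own. Gm16793, 1174 bp from Mfhas1, had its peak 26 bp inside its own gene (score 112.99). Gm16998 had one at -881 bp, upstream of its start (189.14), beyond the reach of the window of Man1a, a Golgi mannosidase gene, 687 bp away. Dio3os and Dio3, the imprinted pair around the type 3 deiodinase gene, had separate peaks at starts 896 bp apart, with scores of 122.42 and 180.29.

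Antisense genes shared their peak less often, and their partner was the one more often marked. Of 2796 antisense pairs, 258 had a peak at both starts (9.23%), 204 only at the antisense start, 686 only at the coding start and 1648 at neither. The same peak served both starts in 174 pairs (6.22%). The coding partner thus had a start-site peak in 944 pairs (33.8%, against 24.2% of all coding genes), and the antisense gene itself in 462. The pairs hold 2431 different partners, so some coding genes count more than once. Coding genes with a start-site peak were also longer, with a median of 26578.5 bp against 15480 bp without, and length was not matched. Where the starts lay over 2 kb apart, so that no peak could count for both, a peak at the partner went with no higher share at the antisense start. There, 77 of 733 antisense genes with a marked partner had a peak (10.5%, 8.38 to 12.95%), and 182 of 1505 with an unmarked partner (12.1%, 10.5 to 13.8%). The pairing rule set these counts: with the nearest opposite coding start within 5 kb as the partner, 249 of 1027 antisense pairs (24.2%) had a peak at both starts.

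In pairs whose starts lay within 1 kb, the peak more often lay from the centre in the direction of coding transcription. That direction from the centre between the starts is called the coding side here. In pairs whose transcripts overlap at the start, it is the side on which the non-coding start lies. Measured from the centre between the starts, the best peak's midpoint was on the coding side in 55 of 69 bidirectional pairs with a peak (79.7%, 68.3 to 88.4%). The median offset was 186 bp into the coding side, with quartiles of 45 and 491 bp. In antisense pairs it was on the coding side in 98 of 156 (62.8%, 54.7 to 70.4%), with a median of 102.5 bp and quartiles of -160 and 314 bp. Of the 173 bidirectional pairs with starts within 1 kb, 112 were divergent, meaning that their transcripts do not overlap at the start, and 61 overlapped there. In the 43 divergent pairs with a peak, the midpoint was past the coding start in 29, past the non-coding start in 9 and between the starts in 5. The peak spanned both starts in 24 of them. Of the 402 antisense pairs with starts within 1 kb, 75 were divergent and 327 overlapped. In the 23 divergent antisense pairs with a peak, the midpoint was past the coding start in 17, past the non-coding start in 4 and between in 2. Within this layout the share past the coding start was thus 73.9% in antisense and 67.4% in bidirectional pairs. The first exon of the coding gene had the higher GC content in 136 of the 173 bidirectional pairs (78.6%). The peak lay on the coding side in 45 of the 55 such pairs with a peak, and also in 10 of the 14 where the non-coding exon had the higher or equal GC content. In antisense pairs it lay there in 60 of 103 (58.3%) where the coding exon had the higher GC content. Where the antisense exon had the higher or equal GC content it was 38 of 53 (71.7%).

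**Figure D3:**
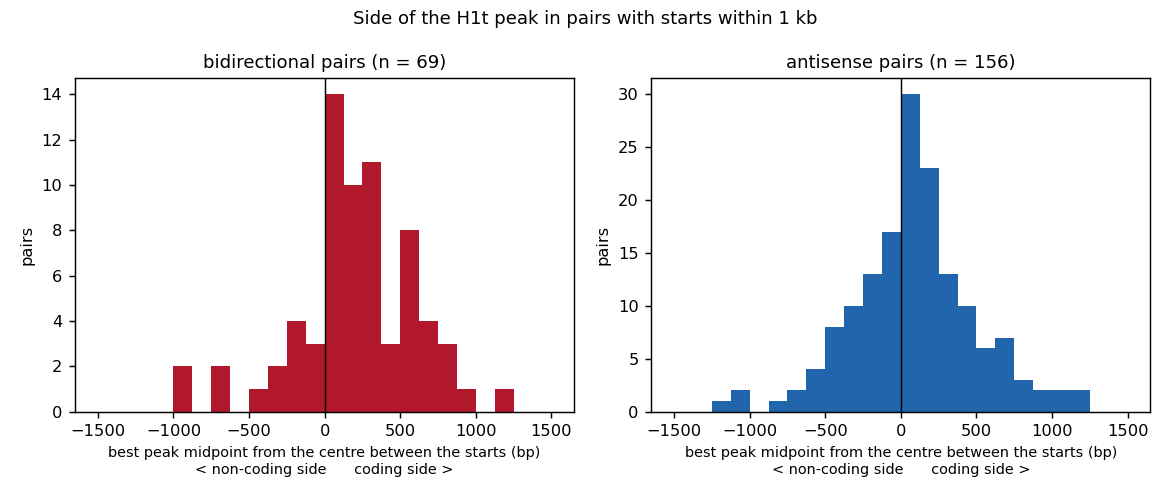
Number of pairs by the distance of the best peak midpoint from the centre between the 2 starts, in bp, for bidirectional (left, 69 pairs) and antisense (right, 156 pairs) genes whose partner starts within 1 kb. Positive values point in the direction in which the coding gene is transcribed. In pairs that overlap at the start, this is the side of the non-coding start. The bidirectional distribution lies mostly to the right (55 of 69), the antisense one less so (98 of 156). The layouts are not matched: 112 of 173 bidirectional pairs are divergent, against 75 of 402 antisense pairs.

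Antisense genes had more start-site peaks the higher the GC content of their first exon, and bidirectional genes did so unevenly. The median first-exon GC content was 56.2% in bidirectional and 52.3% in antisense genes, against 60% in coding genes. It was 59.0% in bidirectional genes with a peak and 55.2% without, and 59.3% and 51.3% in antisense genes. Members and coding genes were divided together into 5 classes of equal size. In the lowest class, up to 48.6% GC, a peak was found at 5 of 39 bidirectional (12.8%), 46 of 895 antisense (5.14%) and 159 of 3848 coding genes (4.13%). In the highest class, over 69.3%, it was found at 11 of 19 (57.9%), 56 of 115 (48.7%) and 2000 of 4647 (43.0%). The antisense share was 9.46%, 25.7% and 42.6% in the classes between, rising with GC content as in coding genes (9.55%, 22.3% and 35.8%). The bidirectional share was 51.0%, 29.8% and 58.3% there, and with 3 classes in place of 5 the lowest held 28.4%. In the second class, 25 of 49 bidirectional genes had a peak (interval 36.3 to 65.6%), against 97 of 1025 antisense genes (7.74 to 11.4%).

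Within a class of distance the same order held for antisense genes, with some steps between small classes excepted. Over 5 kb from a coding start the share was 2.69%, 5.70%, 17.4%, 46.1% and 41.2% from the lowest to the highest GC class, the last over 17 genes. Within 1 kb of a coding start it was 23.9%, 25%, 35.4%, 40.2% and 45.7%. A GC-poor antisense gene near a coding start thus had a peak more often than a GC-poor one far away, while in the highest class the share was 45.7% near (37 of 81), 70.6% at 1 to 5 kb (12 of 17) and 41.2% far (7 of 17). Since the input was not analysed here, the background of the assay by GC content was not measured, and its part in these shares was not tested.

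**Figure D4:**
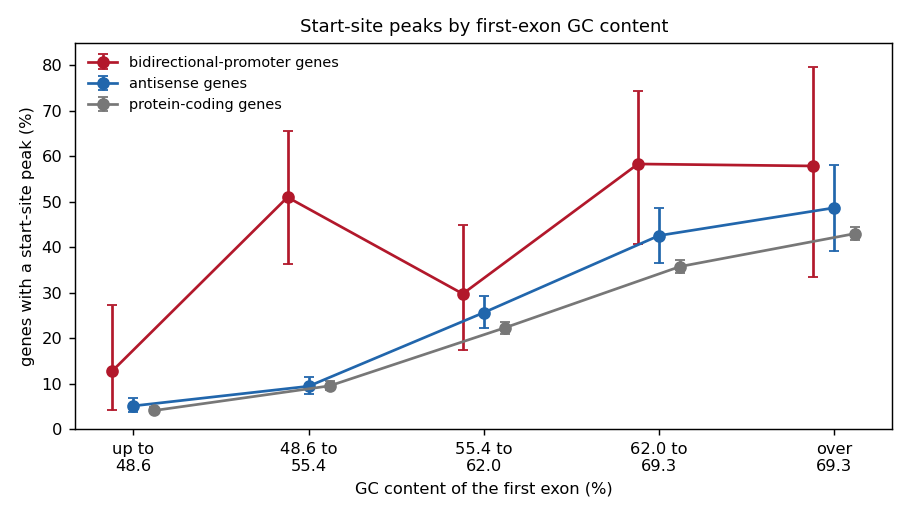
Percent of genes with a start-site peak in 5 classes of first-exon GC content (class limits in percent on the axis), for bidirectional, antisense and coding genes. Error bars are exact 95% binomial intervals over genes. Antisense genes rise with GC content from 5.14% to 48.7%, close to coding genes, and bidirectional genes lie at 51.0% in the second class, where antisense genes lie at 9.46%. Distance to a coding start is not matched. Within 1 kb of one, the second class stands at 56.1% for bidirectional and 25% for antisense genes.

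The start-site peaks of bidirectional genes had higher scores than those of antisense genes. Scores were assigned by the authors and serve here only to describe and rank peaks within this list. The best start-site peak had a median score of 88.72 in bidirectional genes (quartiles 63.77 and 118.35, 76 peaks) and 71.35 in antisense genes (57.78 and 98.01, 470 peaks), against 73.82 over all peaks of these chromosomes. Above the list's median lay 64.5% of the bidirectional and 46.8% of the antisense peaks. Their median widths were 774 and 677 bp, against 699 bp over all peaks. In both types most of these peaks had their midpoint in an exon of a coding gene, while 11.2% of all peaks did. The counts were 44 of 76 in bidirectional (57.9%) and 265 of 470 in antisense genes (56.4%). Of these peaks, 69 bidirectional and 230 antisense ones were also the best peak of a coding start. The value for all peaks covers peaks wherever they lie, so these are not like sets.

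The highest-scoring bidirectional starts belonged to partners of varied function. Gm49620 (chromosome 16, 94081651 to 94083866) had the top score of 300.08, from a peak of 2817 bp at 94083355 to 94086171. Its midpoint had an offset of -897 bp (negative is upstream of the non-coding start), near Sim2, the gene of a neural bHLH-PAS transcription factor that starts 1065 bp away. 0610009L18Rik followed with 298.5 at the start of Actg1, where a peak of 1727 bp covered both starts. Gm32151 had 255.96 beside Trim9, a ubiquitin ligase gene of the brain, and 5730420D15Rik had 229.6 beside Socs2, a suppressor of cytokine signalling. Gm26777 (216.39) lay beside the glycosyltransferase gene Galnt16. Gm10649, the longest of them with 295396 bp, lay beside Nr3c2, the mineralocorticoid receptor gene (207.81). Gm16998 (189.14, beside Man1a) and Gm26559 (184.82, beside Map1b) completed the first 8. In 7 of these 8 pairs the partner's best start-site peak was the same one, and Man1a had none.

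Among antisense genes the top start was Gm45091 (chromosome 7, 35118044 to 35119605), with a score of 396.75 from a peak of 3140 bp. The peak covered the whole of Gm45091 and the start of Cebpa, a transcription factor gene of fat and myeloid cells, 312 bp away. Irx3os had 298.26 at a peak 90 bp upstream of its start, while the start of its partner Irx3, a homeobox gene 1652 bp away, had none. Gm26833 had 268.64, shared with Tmem178b. Nckap5los had 260.24 at its own start, 30047 bp from that of Nckap5l, which had a peak of 142.98. Gm11131 had 218.36, shared with the class I histocompatibility gene H2-Q4. Igf2os, in the imprinted Igf2 region, had 2 peaks within 1 kb, with scores of 217.75 and 186.59, and its partner by the overlap rule (Gm49394) had none. Gm15943 (191.11), far from the start of its partner Klhl38 but 457 bp from another coding start, had a peak outside the partner's window, and Gm42884 (190.43) one shared with Clip2, the gene of a microtubule linker protein. The partner's window held the same peak in 4 of these 8 antisense genes, against 7 of 8 bidirectional ones.

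**Figure D5:**
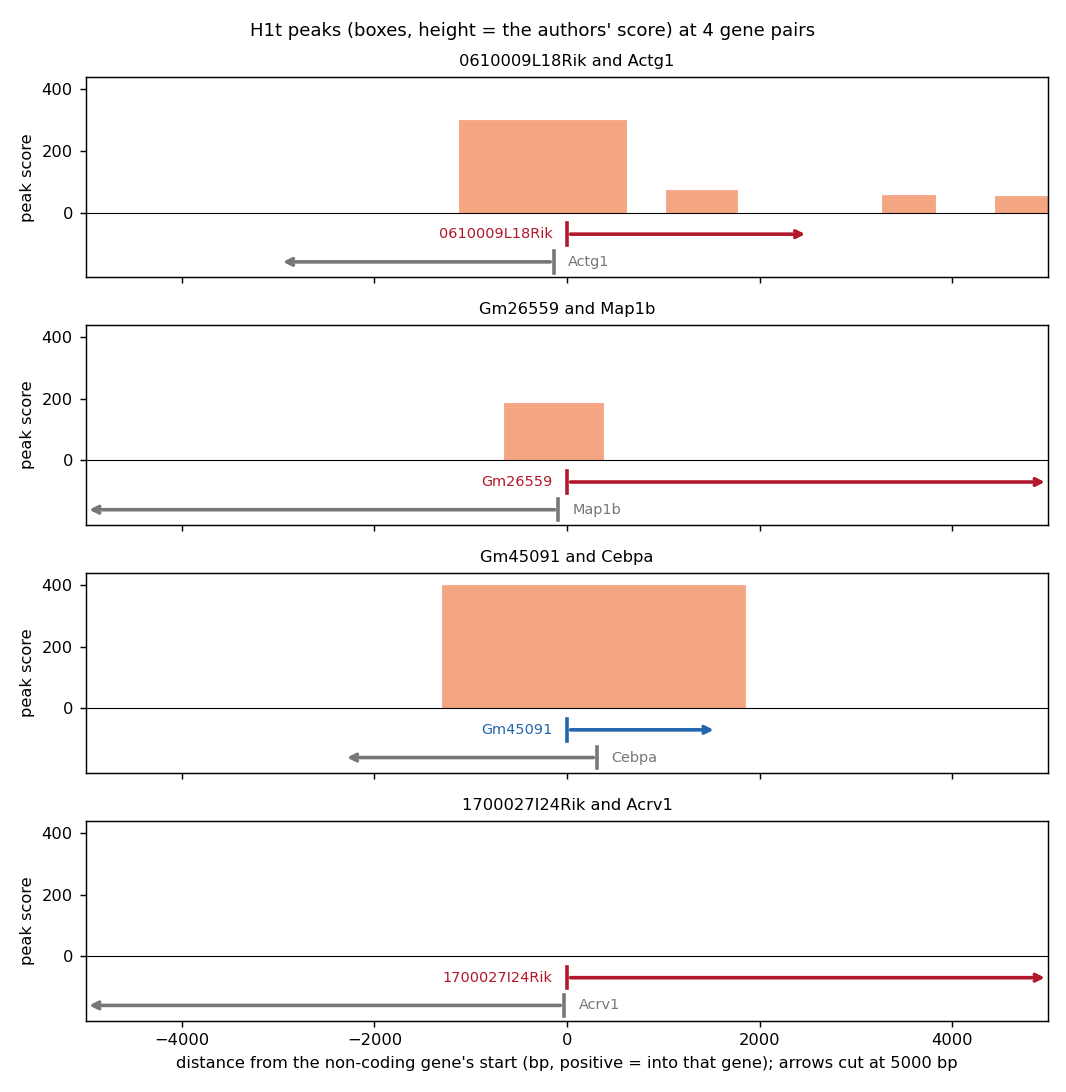
H1t peaks within 5 kb of the non-coding start at 4 gene pairs. The horizontal axis is the distance from that start in bp, the box height is the authors' score, and arrows show the direction of the non-coding gene (red for bidirectional, blue for antisense) and of its coding partner (grey). One peak spans both starts at 0610009L18Rik and Actg1 (298.5), Gm26559 and Map1b (184.82) and Gm45091 and Cebpa (396.75), and there is none at 1700027I24Rik and Acrv1. Arrows end at 5000 bp, and the smaller boxes at 0610009L18Rik are peaks with scores of 71.81, 53.12 and 50.07.

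Inside the genes, beyond the first 1 kb, peaks had a density close to that in coding genes when all bodies were pooled, but not within classes of body length. A body peak was found at 26 of 165 bidirectional genes with such a body (15.8%, 10.6 to 22.2%) and at 506 of 2678 antisense genes (18.9%, 17.4 to 20.4%). The share was 29.4% over all genes and 40.2% over coding genes, whose bodies are longer, with a median of 17582 bp against 3270 bp in bidirectional and 5634 bp in antisense genes. Per length there were 2.57 peaks per 100 kb of bidirectional body (47 peaks), 2.51 of antisense body (1073) and 2.45 of coding body. In bodies under 2 kb a peak was found at 1 of 65 bidirectional, 25 of 689 antisense (3.63%) and 8.02% of coding genes, and at 2 to 10 kb at 4 of 61, 128 of 1052 (12.2%) and 19.4%. In bodies of 10 to 50 kb it was found at 15 of 32 bidirectional genes (46.9%), 220 of 751 antisense genes (29.3%) and 39.5% of coding genes, and at 50 kb or more at 6 of 7, 133 of 186 (71.5%) and 76.4%. The density at 2 to 10 kb was 2.02 peaks per 100 kb in bidirectional, 2.79 in antisense and 4.44 in coding genes, and at 50 kb or more it was 2.58, 2.73 and 2.23. Body peaks had their midpoint in an exon of a coding gene in 3 of 47 bidirectional cases and in 171 of 1060 distinct antisense peaks (16.1%). Their median scores were 76.42 in bidirectional and 73.78 in antisense genes.

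A body peak was about as frequent in antisense genes with a start-site peak (81 of 422 with a body, 19.2%) as in those without (425 of 2256, 18.8%). In bidirectional genes it was 9 of 65 (13.8%) and 17 of 100 (17%), with overlapping intervals. Both kinds of peak were found in 9 bidirectional (4.74%) and 81 antisense genes (2.78%), and neither in 97 (51.1%) and 2018 (69.3%). The same shares over all genes or coding genes were not counted. Genes with at least 2 body peaks in a body of at least 5 kb were ranked by body peaks per 10 kb. Gm47126, paired with Ano10, led the bidirectional genes. It had 3 body peaks in 7968 bp, with scores of 120.48, 90.25 and 313.86, and none at its start. 4930505N22Rik (109.4 and 57.78), D630011A20Rik, paired with the acrosomal gene Spaca7, and 1700027I24Rik, paired with Acrv1, had 2 each and no start-site peak. Those of 1700027I24Rik lay 18763 and 20424 bp into the gene, with scores of 128.5 and 119.59. Gm47962, beside the kinase gene Nuak1, had 2 body peaks and a start-site peak of 172.78. Among antisense genes Gm11767 (5.09 peaks per 10 kb) led, antisense to Baiap2, before Grin1os (4.47), Gm10532 (4.19), Gm20483 (3.98) and Gm15777 (3.20). Grin1os, antisense to an NMDA receptor subunit gene, had a start-site peak of 158.87 and body peaks of 91.28, 68.93 and 69.45, while the other 4 had no start-site peak.

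Of 43 well-known non-coding RNAs that were looked up, 16 were members, all of them antisense. A start-site peak was found at 4 of these 16, against 16.1% of all antisense genes, and a body peak at 11, against 18.9%. Their bodies are long, up to 146598 bp in Nkx2-2os. All but Airn, Kcnq1ot1 and Nespas are named after developmental transcription factor genes or Hox clusters, those without a start-site peak included. Nkx2-2os had a peak at its start (88.54) and 9 in its body of 146598 bp. Emx2os, antisense to a forebrain homeobox gene, shared its peak with Emx2 (64.29) and had 1 body peak. Wt1os had one at -818 bp with a low score (55.15), and Zeb2os one at -978 bp (107.22). Pax6os1 had no start-site peak but 8 in its body, the strongest with a score of 314.85 at 127117 bp from the start. In the Hox clusters, Hotairm1, Hoxaas3, Hoxb3os, Hoxb5os and Hoxd3os1 had no start-site peak, and their bodies held 0, 2, 2, 3 and 0 peaks. The silencing RNAs Airn and Kcnq1ot1 had none at their starts and 1 body peak each, in bodies of 117825 and 92091 bp. Nespas, of the imprinted Gnas region, had none at its start and 1 in its body, and a peak with a score of 305.7 had its midpoint at -4042 bp, upstream of it. Dlx1as had 2 body peaks, and Dlx6os1 and Vax2os had none at the start or in the body.

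Grouped by partner, members beside developmental transcription factor genes had start-site peaks more often than the average member. Of 61 such members, 21 had one (34.4%, 22.7 to 47.7%), against 17.6% of all 3103 members. By type these were 2 of 3 bidirectional genes and 19 of 58 antisense genes. The 61 members have 49 different partners, and Sox5 alone accounts for 5 antisense genes, none with a peak at its start. Haglr, the bidirectional gene beside Hoxd1, had 125.79, and Gm49492 beside Pou6f1 had 124.73. Among antisense genes Irx3os, Zeb2os, Gm26826 beside Foxj2 (106.13) and Gm27199 beside Lhx5 (105.22) had the highest scores. The median first-exon GC content of these members was 57.5%, above that of antisense genes as a whole (52.3%). With peaks above the list's median score the count was 9 of 61 (14.8%), against 269 of all 3103 members (8.67%).

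Other groups of partners were small. Beside zinc finger genes named Zfp, Zscan or Zkscan, 10 of 50 members had a start-site peak (20%, 10.03 to 33.7%). Beside core histone genes it was 4 of 8, among them H3f3aos with 2 peaks shared with H3f3a (best score 107.56) and Gm47071, which starts 310111 bp from its partner H2afy (77.25). Beside imprinted genes it was 3 of 12, namely Dio3os, Gm44732 beside the growth inhibitor gene Cdkn1c (82.16) and 4933417O13Rik inside Kcnq1 (61.32). Beside genes whose names begin with Rpl or Rps it was 1 of 6, one of which, Gm12977 without a peak, lies beside the kinase gene Rps6ka1 and not a ribosomal protein gene. Beside mitochondrial ribosomal protein genes it was 0 of 3. The short lists of male germ line genes held 10 members and none had a start-site peak, with 0 of 2 for meiotic genes (Rnf212 and Mei4), 0 of 3 for piRNA pathway genes (Tdrd5, Pnldc1 and Piwil4) and 0 of 5 for spermatid genes, which included Tnp1, Prm1 and Acrv1. These groups are too small to be set apart from the 17.6% of all members: 0 of 5 has an interval up to 52.2%. Outside these lists, 4931419H13Rik shared a start-site peak with Ccna1, the cyclin A1 gene of male meiosis. Members named after RIKEN clones of the kind made from testis had a start-site peak in 7 of 24 bidirectional (29.2%, 12.6 to 51.1%) and 35 of 273 antisense genes (12.8%, 9.09 to 17.4%).

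The annotation is uneven between chromosomes for bidirectional genes. Of the 190, 187 lie on chromosomes 6 to 19, and chromosomes 1, 3 and 5 have none, against 1939 of 2913 antisense genes on 6 to 19. How many genes of chromosomes 1 to 5 typed as antisense would carry the other type under the same curation was not tested. On chromosomes 6 to 19 alone the start-site shares were 40.1% for bidirectional and 15.7% for antisense genes, and 40.4% and 30.7% within 1 kb of a coding start. Across single chromosomes the antisense share ran from 9.93% on chromosome 13 to 20.7% on chromosome 17. Among chromosomes with at least 20 bidirectional genes, their share was 34.8% on chromosomes 8 and 10, 42.9% on chromosome 17 and 43.3% on chromosome 12.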

How the data were processed

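H1t chromatin immunoprecipitation from mouse spermatogenic cells was analysed as 1 deposited peak list. The submitters' processing notes name Bowtie 1.1.2 and the build mm10. Peak names have the form that MACS writes, per the deposited file, and each peak has a score that the authors assigned (lowest 50). The sources used here do not give the caller's settings, its control or how reads with several matches were treated, and read depth is unknown, so the precision of single peaks cannot be given.

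Gene types and positions came from GENCODE M21 (Ensembl 96) and promoter sequences from RefSeq (GRCm38.p6), printed counted from 1. Starts are 5′ ends of gene records. The body begins 1 kb downstream. First-exon GC was computed from GENCODE transcripts for all members. The counting was tested on simulated data with planted peaks and against a direct search. Named genes are, per type, the 8 highest start-site scores, the 5 densest bodies of at least 5 kb with 2 or more body peaks, and the listed non-coding RNAs. Other genes named as examples within partner groups or as exceptions were chosen after their values were seen. Members and lists were chosen with earlier results of these data known. Counts by position along the partner, by peak side, by exon and by chromosomes 6 to 19 were added later, with the data in view. Alternatives covered the window, score, overlap, start, pairing, body, GC and bin rules. Intervals were computed with scipy 1.17.1, tables with pandas 2.3.3 and numpy 2.4.6 under Python 3.11.15, and figures with matplotlib 3.10.9. RIKEN testis clones were recognised by the library number at the start of the gene name.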

Additional observations from a re-analysis of the deposited data

Results flagged for a closer look

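Of the 46 genes of these types on X and Y, which no comparison above uses, 2 had a start-site peak, a signal in data left out of the comparisons. Both were among the 45 antisense genes on X (4.44%), and the single antisense gene on Y had none. They were Gm15247, with a score of 732.2, and Gm15169, with 80.06. No explanation was tested.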

How the results depend on the processing

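Of 107 values under alternatives, 50 stayed within the main value's interval and 57 moved outside it, and none turned the order of the types. With peaks above the list's median score, start-site shares were 25.8% for bidirectional genes (25.3% near a coding start) and 7.55% for antisense genes (15.2% near, 12.5% at 1 to 5 kb, 3.86% beyond). Both starts then had a peak in 25% of bidirectional and 3.68% of antisense pairs, with a shared peak in 24.5% and 3.15%. Body shares were 7.27% and 10.3%, densities 1.31 and 1.24 per 100 kb, members beside developmental factors 14.8% and testis clone names 6.06%. With a 500 bp window, shares were 27.9% (29.3% near) for bidirectional and 10.3% for antisense genes (24.6%, 11.8% and 5.26% by distance). Both starts had a peak in 25% and 4.79% of pairs, shared in 23.4% and 2.97%. With a 2 kb window, antisense genes had 21.5% (36.5% near, 37.1% at 1 to 5 kb, 12.9% beyond). The near share was then no longer above that at 1 to 5 kb, as it was in the main setting. Both starts had a peak in 13.9% of antisense pairs, with a shared peak in 9.41%, and 44.6% of bidirectional pairs shared one. With any overlap, antisense genes had 18.4% (30.6% and 10.1%), both starts 11.5%, shared 7.80%, body share 21.5% and density 2.73. With distances to any coding transcript, antisense shares were 17.2% at 1 to 5 kb and 6.88% beyond. With starts of any transcript, 13.1% of antisense pairs had both and 9.80% shared. With the nearest opposite start as partner these were 24.2% and 22.6%, and within 1 kb 32.1% and 32.1%. Outside coding exons, antisense body share was 14.8% and density 2.22. With 3 GC classes the lowest held 28.4% for bidirectional and 6.81% for antisense genes, and with transcript GC the highest held 37.2% for antisense genes. The causes were not tested.

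No paired analysis was possible because 1 library has a peak list here. Read depth is unknown, so an absent peak is not absent binding. Without a replicate, variation between animals was not measured, and the input was not analysed here.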
